A study of Bos taurus with 5 samples.

Results

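The bright, balanced probes described here were chosen on a 60-base oligonucleotide array of bovine ovarian follicles for giving a strong signal and near-equal means in F1, the largest follicle of a cow, and F2, the next in size. The scaled signal of a probe was its processed signal divided by the median of the 100 spots for GAPDH, a glycolytic enzyme, on the same array. Of 10163 single-spot probes, 1415 carried a RefSeq NM_ accession of a named transcript, and 737 of these were well above background and unsaturated on all 5 arrays. The ratio of the F1 and F2 geometric means lay within 1.5-fold for 385 of the 737, and the 100 brightest of the 385 were taken. The F1 to F2 ratio and the brightness were therefore set by the choice and are given as descriptions. The rest of each gene family was left out by the limits of the choice, so its differences from the 100 are in part set by them. The spread between follicles of the same group and the agreement between spots were not used by the choice. The ratio limits still favour probes of small spread, because a wide spread moves means of few follicles apart.

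The follicles came from the paired ovaries of 4 pregnant Japanese Black cows, which received no treatment named in the labels, and their age was not given. There were 3 F1 and 2 F2, each hybridised alone to its own array. The follicular wall, with granulosa cells and theca interna, was frozen after stroma and theca externa had been removed. The methods state that 3 F1 and 3 F2 were collected, both follicles from 2 of the cows, and that 1 F2 was not put on an array. At least 1 of the arrayed F2 therefore shared a cow with an F1, and which ones did was not named. Group and follicle size cannot be told apart. The p-values rest on these 5 follicles alone, with the spread of each probe drawn toward that of all tested probes.

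The wall of an antral follicle consists of an inner granulosa layer, which converts androgen to estradiol, and a vascular theca interna, which makes the androgen. All of these cells need the same basic machinery: ribosomes, protein folding in the endoplasmic reticulum, vesicle traffic and mitochondrial respiration, the last also supplying the reducing power and the site for the first step of steroid synthesis. Genes of this kind are often used as internal references when follicles of different status are compared.

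The markers of both follicular cell layers were present, and granulosa markers were higher in F1. The summed signal of 7 granulosa markers was 217 to 295 in the F1 follicles and 14.5 to 19.5 in the F2 follicles. All 7 were called higher in F1 by limma (adjusted p under 0.05), which called 11.5% of 5528 tested probes, 6.39% higher in F1 and 5.08% higher in F2. Because 4 of the 7 were saturated on some arrays the F1 sums are lower bounds, and the other 3 summed to 9.51 to 22.6 against 0.240 to 0.430. For 6 theca interna markers the sum was 69.3 to 105 in the F1 follicles and 30.1 to 33.3 in the F2 follicles, with 3 called higher in F1, but without the partly saturated INSL3 it was 27.0 to 34.4 against 26.4 to 27.8. STAR, which carries cholesterol into mitochondria, ran the other way (5.56, 3.14 and 5.33 against 16.1 and 9.91, adjusted p = 0.0593). Sums for leukocytes (0.866 to 0.939 against 1.30 to 1.60) and stroma (5.70 to 9.51 against 10.1 to 17.1) lay higher in the F2, with 2 and 1 markers called. Without LUM, the stroma marker called, the stroma sums overlapped (4.68 to 7.90 against 7.02 to 13.2). They stayed apart when any other stroma marker was left out. The endothelial sum (0.157 to 0.250 against 0.763 to 1.11) rested on SELP, the marker called there, and without it was 0.113 to 0.166 against 0.127 to 0.249. The sums without a gene were added after the values were seen. Haemoglobin beta was not above background. In such bulk tissue fewer cells of a type and less RNA per cell cannot be told apart, and the part of these differences in the values below was not tested.

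Some of the probes allowed measurement error to be seen directly, because the same bases, or part of them, were printed on a second spot under another accession. The sequences shown, 5′ to 3′, are those of ribosomal protein and poly(A)-binding protein probes among the 100, and capitals mark bases shared with a second spot. RPL24 and PABPC1 are shown because each was printed on 2 spots, and RPL12 and RPL3, in lower case, as ribosomal protein probes that had 1 spot.
RPL24: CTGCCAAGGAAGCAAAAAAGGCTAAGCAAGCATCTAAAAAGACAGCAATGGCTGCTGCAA
PABPC1: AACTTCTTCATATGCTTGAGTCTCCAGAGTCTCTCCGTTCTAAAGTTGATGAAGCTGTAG
RPL12: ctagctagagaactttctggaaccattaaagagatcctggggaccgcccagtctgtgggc
RPL3: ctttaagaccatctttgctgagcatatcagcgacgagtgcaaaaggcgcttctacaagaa
The RPL24 probe, for a protein of the large ribosomal subunit, gave 13.0, 17.5 and 11.1 in the F1 follicles and 8.25 and 12.8 in the F2 follicles. Its second spot gave 13.7, 17.9 and 10.2 in the F1 follicles and 7.76 and 12.7 in the F2 follicles, so the spots differed by at most 0.12 on the log2 scale in any follicle. The within-group standard deviation (SD, pooled over F1 and F2, log2 scale) was 0.37 on the first spot and 0.44 on the second, and by their signals both spots put the 5 follicles in the same order.
The PABPC1 probe, for the protein that binds the poly(A) tail of messenger RNA, gave 8.13, 11.5 and 8.91 in the F1 follicles and 9.07 and 12.4 in the F2 follicles. Its second spot gave 7.71, 11.3 and 8.62 in the F1 follicles and 8.71 and 11.9 in the F2 follicles, a largest difference of 0.08. On both spots F1 replicate 2 and F2 replicate 2 were the highest of their groups.

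A second probe for ARF1, a small GTPase that recruits vesicle coats, shared 40 of its 60 bases with the first. The first probe gave 20.4, 17.8 and 16.9 in the F1 follicles and 13.6 and 13.8 in the F2 follicles. The partly shared probe gave 14.7, 13.6 and 12.3 in the F1 follicles and 10.5 and 11.1 in the F2 follicles. F1 minus F2 was 0.42 and 0.32 (log2) by the 2 probes, with within-group SDs of 0.11 and 0.11, and all F1 lay above all F2 on both. PLP2, a membrane protein of the endoplasmic reticulum, shared 22 bases with another probe, and here the probes were less alike: the within-group SD was 0.39 on the first and 0.11 on the other, with F1 minus F2 of -0.23 and -0.26. A further 7 probes shared only 15 or 16 bases with 1 of the 100, too few to say that they measure the same gene. Of these, 2 were not above background and 5 had F1 minus F2 of -0.82 (beside CLTC) to 2.64 (beside ARF1), 2 of them opposite in sign to the balanced probe. Over the whole array, 57 pairs of spots carried the same 60 bases, and for the 19 pairs measured on all arrays the median SD between spots was 0.15, against a median SD of 0.30 between follicles of the same group. The 100 GAPDH spots had an SD of 0.15, 0.14 and 0.097 within the F1 arrays and 0.19 and 0.21 within the F2 arrays.

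Brightness ran from 38.8 times the GAPDH median for FAU down to 1.71 times for SND1, with a median of 3.71. Because probes differ in how well they bind, this order is of probe signals and not of transcript amounts. The most intense signals were not among the 100, since 21 NM_ probes were saturated on at least 1 array. Of these, 12 had a measured ratio within the same limits, among them the ribosomal proteins RPLP2, RPS29, RPS27A, RPSA and RPL10, the ferritin chain FTH1 and the actin-binding peptide TMSB4X. RPLP2, RPSA and MFGE8 were saturated on all 5 arrays, so their signals are lower bounds. A further 90 NM_ probes were as bright as the 100 but had ratios beyond 1.5-fold, 55 higher in F1 and 35 higher in F2.

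**Figure D1:**
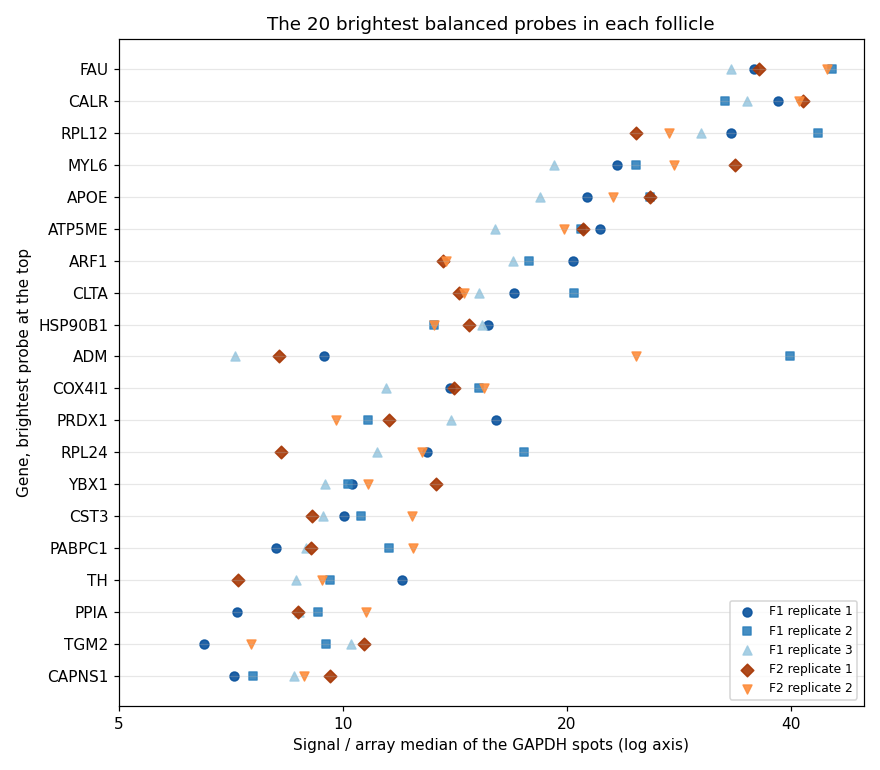
Scaled signal (array signal over the GAPDH spot median, log axis) of the 20 brightest balanced probes, 1 point per follicle, blue for F1 and orange for F2. FAU spans 33.3 to 45.5 and CALR 32.6 to 41.6, whereas ADM spans 7.17 to 39.96.

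The 20 brightest were led by genes of protein synthesis and folding. FAU, a ubiquitin-like fusion with ribosomal protein S30, gave 35.7, 45.5 and 33.3 in the F1 follicles and 36.3 and 44.7 in the F2 follicles. CALR, the calcium-binding chaperone calreticulin, gave 38.5, 32.6 and 34.9 in the F1 follicles and 41.6 and 41.0 in the F2 follicles. The FAU signals of the groups interleaved, while every CALR signal in the F2 exceeded every one in the F1, by a ratio of geometric means of 1.17. RPL12 gave 33.3, 43.6 and 30.3 in the F1 follicles and 24.8 and 27.5 in the F2 follicles, the F1 lying wholly above the F2. HSP90B1, the endoplasmic reticulum chaperone GRP94, gave 15.7, 13.3 and 15.4 in the F1 follicles and 14.8 and 13.3 in the F2 follicles, a highest to lowest ratio of 1.18 over all 5 follicles. PPIA, cyclophilin A, gave 7.20, 9.27 and 8.74 in the F1 follicles and 8.70 and 10.7 in the F2 follicles.

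Several of the 20 belonged to the cytoskeleton, coats and secretion. MYL6, a myosin light chain, gave 23.4, 24.8 and 19.3 in the F1 follicles and 33.6 and 27.8 in the F2 follicles, with no overlap. CLTA, a clathrin light chain, gave 17.0, 20.5 and 15.2 in the F1 follicles and 14.3 and 14.6 in the F2 follicles. Both F2 lay below all F1 for CLTA, so the pair ran in opposite directions. APOE, the lipid-carrying apolipoprotein, gave 21.3, 25.9 and 18.4 in the F1 follicles and 25.9 and 23.1 in the F2 follicles, and CST3, the protease inhibitor cystatin C, gave 10.03, 10.6 and 9.40 against 9.08 and 12.4. In both the groups overlapped. CAPNS1, the small subunit of calpain proteases, gave 7.13, 7.56 and 8.58 in the F1 follicles and 9.60 and 8.86 in the F2 follicles, and TGM2, a protein cross-linking transglutaminase, gave 6.50, 9.51 and 10.3 against 10.7 and 7.53.

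The remainder of the 20 covered respiration, redox control and regulation. ATP5ME, an ATP synthase subunit, gave 22.2, 20.9 and 16.02 in the F1 follicles and 21.0 and 19.8 in the F2 follicles, and COX4I1, a cytochrome c oxidase subunit, gave 13.9, 15.2 and 11.4 against 14.1 and 15.5. F1 replicate 3 was the lowest follicle for both. PRDX1, a peroxiredoxin that reduces peroxides, gave 16.1, 10.8 and 14.0 in the F1 follicles and 11.5 and 9.78 in the F2 follicles. YBX1, an RNA-binding cold-shock protein, gave 10.3, 10.2 and 9.45 in the F1 follicles and 13.3 and 10.8 in the F2 follicles, with no overlap. TH, the rate-limiting enzyme of catecholamine synthesis, gave 12.01, 9.62 and 8.66 in the F1 follicles and 7.24 and 9.37 in the F2 follicles, and the groups overlapped.

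ADM, the vasodilator peptide adrenomedullin, went against a description of the set as stable across follicles. It gave 9.44, 39.96 and 7.17 in the F1 follicles and 8.21 and 24.8 in the F2 follicles, so F1 replicate 2 and F2 replicate 2 were high and the other 3 follicles were low. Its group means were equal (F1 minus F2 of -0.03, log2), yet the highest follicle was 5.58 times the lowest and its within-group SD was 1.27. Near-equal group means in 3 and 2 follicles thus did not amount to equal signals in the follicles.

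The spread between follicles of the same group was not used directly to choose the probes, but the ratio limits favour probes of small spread. The median within-group SD over the 100 was 0.20 on the log2 scale (interquartile range 0.14 to 0.27, whole range 0.039 to 1.27). It was 0.33 over all 737 measured NM_ probes and 0.29 over the 385 within the ratio limits, so the gap to the 737 is in part fixed by the choice. Among the 285 dimmer probes within the same ratio limits the median was 0.33, and among the 90 equally bright probes beyond those limits it was 0.30. An SD under 0.2 was found for 50 of the 100, for 21.8% of the 737 and for 29.1% of the 385. Under the 75th percentile the medians of the 100, the 737, the 285 and the 90 were 0.22, 0.29, 0.26 and 0.28. Probes are not replicates, and these medians were not tested against each other.

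**Figure D2:**
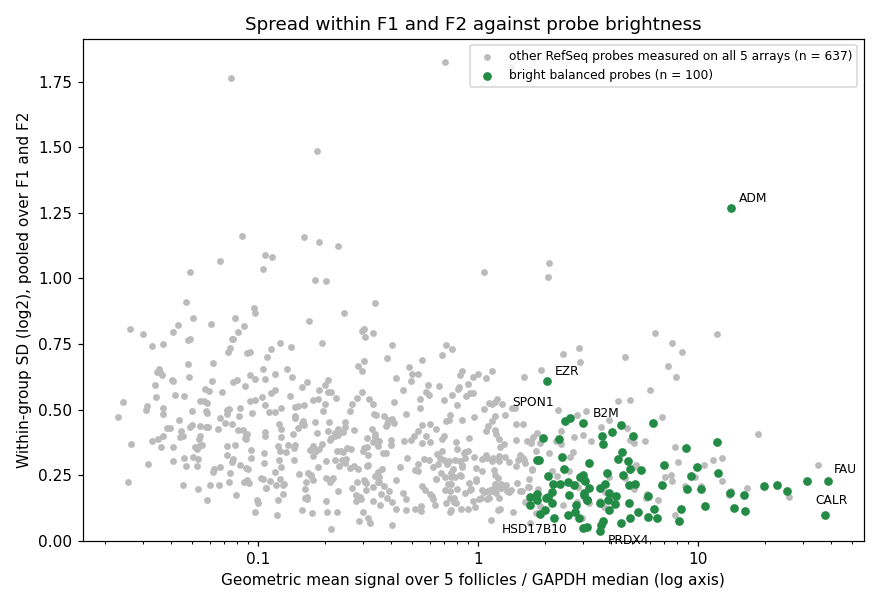
Within-group SD of the log2 signal, pooled over 3 F1 and 2 F2, against the geometric mean signal over the 5 follicles (log axis) for the 737 NM_ probes measured on all arrays. The 100 balanced probes (green) have a median SD of 0.20, and ADM at 1.27 and EZR at 0.61 are the 2 above 0.5.

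Over all 5 follicles the highest signal was less than 1.5 times the lowest for 51 of the 100 and less than 2 times for 88, and 14.8% and 42.1% of the 737 measured probes met these limits. The choice bounded the F1 to F2 part of this ratio for the 100 and not for the 737, so the gap is in part fixed by it. The median ratio of highest to lowest was 1.496. HSD17B10, a mitochondrial dehydrogenase that also serves in transfer RNA processing, had the smallest ratio, 1.10, with signals of 3.23, 2.96 and 3.07 in the F1 follicles and 3.25 and 3.14 in the F2 follicles. Its follicles of both groups interleaved within a within-group SD of 0.05.

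With the GAPDH scaling, the other least variable probes within groups were for 2 peroxiredoxins and 2 subunits of respiratory complex I. This order depended on the scaling: none of the 5 smallest SDs was among the 5 smallest under the 75th percentile or after quantile normalization, and 4 were with normexp background correction. Under the 75th percentile the SDs of HSD17B10, PRDX4, PRDX5, NDUFB8 and NDUFB9 were 0.25, 0.20, 0.20, 0.18 and 0.22, and the smallest was that of LOC286807 (formerly SMT3B, a SUMO protein) at 0.06. PRDX4, the peroxiredoxin of the endoplasmic reticulum, gave 4.02, 4.12 and 3.89 in the F1 follicles and 2.96 and 3.06 in the F2 follicles, with a within-group SD of 0.04. PRDX5, found in mitochondria and peroxisomes, gave 3.52, 3.34 and 3.33 in the F1 follicles and 2.36 and 2.51 in the F2 follicles, with an SD of 0.05. For both, every F1 lay above every F2 with the GAPDH scaling, by ratios of geometric means of 1.33 and 1.396. The choice nevertheless counted them as near-equal. Under the 75th percentile the groups overlapped for both, with F1 minus F2 of 0.20 and 0.27 (log2). NDUFB8 gave 3.93, 3.75 and 3.66 in the F1 follicles and 3.26 and 3.49 in the F2 follicles, an SD of 0.06, and NDUFB9 gave 4.70, 5.04 and 4.52 against 4.13 and 3.97, an SD of 0.07.

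After ADM, the most variable probe was EZR, for the membrane-cytoskeleton linker ezrin, with 3.23, 2.27 and 1.18 in the F1 follicles, 1.92 and 2.22 in the F2 follicles and an SD of 0.61. SPON1, a secreted matrix protein, gave 1.85, 4.04 and 2.43 in the F1 follicles and 2.51 and 2.69 in the F2 follicles (SD 0.47), with F1 replicate 2 alone high. PAFAH1B2, a catalytic subunit of a platelet-activating factor hydrolase, gave 3.68, 2.68 and 1.73 in the F1 follicles and 2.16 and 2.49 in the F2 follicles (SD 0.45). Under the 75th percentile the SDs of EZR, SPON1 and PAFAH1B2 were 0.44, 0.48 and 0.30, and ADM was again the most variable at 1.11. In EZR and PAFAH1B2 the scatter lay within the F1, and the F2 fell inside its range.

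B2M, the light chain of class I histocompatibility molecules, and PPIA were the only members in the list of commonly used reference genes. B2M gave 2.18, 3.29 and 3.02 in the F1 follicles and 2.43 and 4.56 in the F2 follicles, with an SD of 0.45 and a highest to lowest ratio of 2.09. PPIA had an SD of 0.20 and a ratio of 1.49. These values are relative to GAPDH. Under the 75th percentile the SDs of B2M and PPIA were 0.42 and 0.27. Their F1 minus F2 (log2) moved from -0.26 and -0.21 to -0.47 and -0.42. The list had 8 NM_ probes on the array, all tested, and limma called 0 between F1 and F2 (3 at an unadjusted p under 0.05, and 2 called with normexp background correction). The adjusted p was 0.651 for PPIA and 0.681 for B2M. Both were chosen by this contrast, so nothing is read from their p-values or their part in the count. The dimmer UCHL5, a proteasome-associated deubiquitinase, had 0.198, 0.195 and 0.210 in the F1 follicles and 0.194 and 0.230 in the F2 follicles, an SD of 0.11. YWHAZ, a 14-3-3 adaptor, had 0.179, 0.149 and 0.137 against 0.187 and 0.186, with an SD of 0.16. By contrast LDHA, lactate dehydrogenase A, gave 1.02, 0.536 and 1.30 in the F1 follicles and 2.04 and 1.81 in the F2 follicles, and SDHA, the catalytic subunit of succinate dehydrogenase, gave 19.3, 15.7 and 15.1 against 11.1 and 9.70. These lay beyond the ratio limits in opposite directions, with adjusted p of 0.145 and 0.166. UBB, polyubiquitin B, had the largest difference of the 8, with 0.477, 0.522 and 0.493 in the F1 follicles and 0.0685 and 0.265 in the F2 follicles (log2 difference 1.88, adjusted p = 0.0825).

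Mitochondrial energy genes were the most numerous group among the 100, with 25 members of 70 such NM_ probes on the array. Their geometric mean was higher in F1 for 22 of the 25, but for 16 when scaled to the 75th percentile and 14 after quantile normalization. The median difference was 0.30 (log2) with a median within-group SD of 0.15. The complexes were labelled after the values had been seen, and complex I, which feeds electrons from NADH into the chain, supplied 11 members with differences from 0.07 to 0.54, all higher by mean in F1, though 6 were under the 75th percentile and 4 under quantile normalization. NDUFA13 gave 9.03, 8.40 and 7.997 in the F1 follicles and 7.94 and 7.66 in the F2 follicles. NDUFA4, a small subunit long assigned to complex I and counted with it here, gave 7.53, 6.88 and 6.79 against 6.01 and 5.46. In both, the F1 lay above the F2 with within-group SDs of 0.08 and 0.09, which were 0.21 and 0.25 under the 75th percentile, where the NDUFA13 difference turned from 0.12 to -0.09.

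Cytochrome c oxidase supplied 4 members and ATP synthase 5. COX8A gave 3.30, 3.32 and 3.105 in the F1 follicles and 1.94 and 2.43 in the F2 follicles, near the upper ratio limit, while COX4I1 had a difference of -0.14. Of the ATP synthase members, ATP5PD gave 7.17, 6.96 and 6.28 in the F1 follicles and 5.16 and 6.03 in the F2 follicles, and ATP5IF1, the inhibitory factor of the enzyme, gave 6.76, 4.87 and 5.22 against 3.73 and 4.14. Both groups were apart for these subunits, while ATP5ME, the brightest, overlapped. Complex III had UQCRC1 (5.56, 5.58 and 4.84 against 4.63 and 3.87) and UQCR11 (1.89, 1.64 and 1.91 against 2.04 and 2.06), which differed in direction. VDAC2, a channel of the outer membrane, gave 5.54, 5.54 and 4.87 in the F1 follicles and 4.27 and 4.28 in the F2 follicles.

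**Figure D3:**
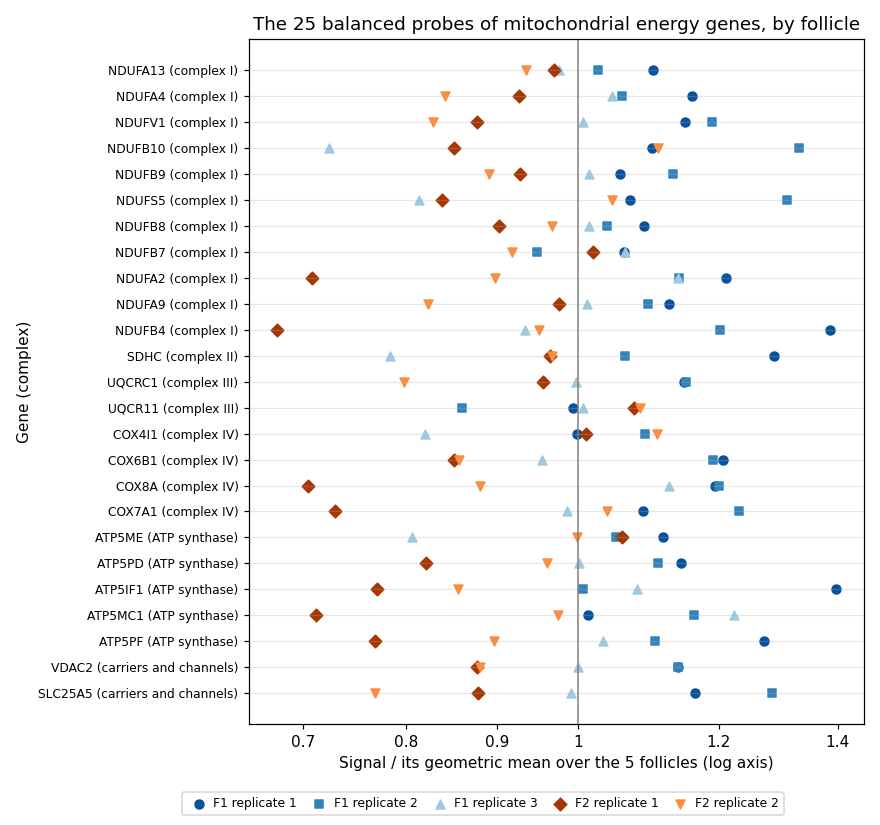
Signal of each of the 25 mitochondrial energy probes divided by its own geometric mean over the 5 follicles (log axis), grouped by complex, 1 point per follicle. The F1 points lie mostly to the right of 1 and the F2 points to the left, and for NDUFB10 and NDUFS5 the F1 replicate 3 point lies to the left of all others.

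Over the whole list of 70 mitochondrial energy probes tested, limma called 3 higher in F1 and 0 in F2 (17 at an unadjusted p under 0.05 in either direction), beside 17.8% of all tested NM_ probes. The 25 balanced probes among the 70 were chosen by this contrast, so the count is in part fixed by the choice. The count was 5 with the 75th percentile, 10 with an intensity trend, 9 with normexp and 1 with a replicate block, and without F2 replicate 1 it was 0 and without F1 replicate 1, F1 replicate 3 or F2 replicate 2 it was 1. The list's median F1 minus F2 was 0.44, against 0.27 for all tested probes. The 3 called genes were outside the balanced set: NDUFS4, an accessory subunit of complex I, gave 3.59, 3.33 and 3.48 in the F1 follicles and 0.695 and 0.859 in the F2 follicles (log2 difference 2.16, standard error 0.27, adjusted p = 0.00514). NDUFC1 (log2 difference 1.75, adjusted p = 0.0287) and IDH3A, a subunit of NAD-dependent isocitrate dehydrogenase (2.01, adjusted p = 0.0264), were the others. Within complex I all 33 probes had a fitted difference above 0, with a median of 0.54, and 2 were called, while 26 lay above 0 with the 75th percentile and 24 after quantile normalization. Scaling to the 75th percentile of each array lowered the list's median to 0.23 and that of all tested probes to 0.06.

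Ribosomal proteins supplied 5 of 10 NM_ probes, and the other 5 were saturated on 3 to 5 arrays. Beside FAU, RPL12 and RPL24, RPL3, a core protein of the large subunit, gave 4.85, 7.20 and 5.01 in the F1 follicles and 5.01 and 5.73 in the F2 follicles, and RACK1, a scaffold on the small subunit, gave 3.55, 4.02 and 2.95 against 2.86 and 5.25. All 5 were highest among the F1 in replicate 2 under either scaling. Their median within-group SD was 0.27 and that of the mitochondrial members 0.15, but 0.21 and 0.20 under the 75th percentile. EIF6, which keeps ribosomal subunits apart, gave 2.72, 2.64 and 1.99 in the F1 follicles and 3.43 and 3.07 in the F2 follicles. Beside 17.8% of tested NM_ probes called by limma, 0 of the 10 ribosomal probes (0 at an unadjusted p under 0.05) and 0 of 5 tested translation factors (2 at an unadjusted p under 0.05) were called. The choice used this contrast for the 5 balanced ribosomal probes and the 2 balanced translation factors. The signals of the 5 saturated ribosomal probes are lower bounds, so nothing is read from these counts.

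Chaperones supplied 5 members of 18 probes. PPIB, a cyclophilin of the endoplasmic reticulum, gave 2.49, 2.64 and 2.37 in the F1 follicles and 1.91 and 1.71 in the F2 follicles, and HSPE1, the mitochondrial co-chaperonin, gave 8.40, 9.24 and 6.55 against 4.78 and 6.70. CALR and PPIA had the higher mean in F2, so the chaperones did not share a direction. Beside 17.8% of all tested NM_ probes, limma called 0 of the 17 tested chaperone probes (3 at an unadjusted p under 0.05). With the 75th percentile it called 1 in each direction. The 5 balanced chaperones among the 17 were chosen by this contrast, so the count is in part fixed by the choice.

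All 5 trafficking members, ARF1, CLTA, CLTC, COPB2 and COPE, had the higher mean in F1 under both the GAPDH and the 75th percentile scaling, and 3 of the 5 after quantile normalization. The median difference was 0.35 and the SDs were 0.11 to 0.18. CLTC, the clathrin heavy chain, gave 4.02, 3.62 and 3.77 in the F1 follicles and 2.88 and 3.59 in the F2 follicles, and COPB2, a subunit of the COPI coat, gave 3.13, 3.24 and 2.72 against 2.31 and 2.39. Both were apart between groups with the GAPDH scaling. Under the 75th percentile the groups overlapped for both, with F1 minus F2 of 0.03 and 0.15 (log2). Limma called 17.8% of all tested NM_ probes in either direction. Of 12 tested trafficking probes, SEC11A, a signal peptidase subunit outside the balanced set, was called higher in F1 (log2 difference 1.58, adjusted p = 0.0367), a call that was lost without F1 replicate 1, F2 replicate 1 or F2 replicate 2.

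Of the antioxidant genes, PRDX1, PRDX4 and PRDX5 were balanced. Limma called 4 of 20 tested probes of the list higher in F1 and 0 in F2 (10 at an unadjusted p under 0.05), a share of 20% beside 17.8% of all tested NM_ probes. With the 75th percentile 4 and 2 were called, without F2 replicate 1 it was 0 and without F2 replicate 2 it was 2. GPX1, a selenium-dependent glutathione peroxidase, gave 25.1, 19.7 and 16.5 in the F1 follicles and 1.78 and 2.38 in the F2 follicles (log2 difference 3.29, standard error 0.32, adjusted p = 0.00201). GPX3, TXNRD2 and PRDX3, the mitochondrial peroxiredoxin, were the others, and PRDX3 differed by 1.14 (adjusted p = 0.0464). No test compared PRDX3 with the balanced peroxiredoxins.

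Among cytoskeletal members, VIM, the intermediate filament vimentin, gave 4.27, 5.99 and 4.42 in the F1 follicles and 4.30 and 5.67 in the F2 follicles, with a difference of -0.03, and DYNLL1, a dynein light chain, gave 7.19, 4.33 and 4.45 against 3.51 and 3.73. Limma called 17.8% of all tested NM_ probes in either direction, and 5.08% of all tested probes higher in F2. The cytoskeletal list had 3 of 11 tested probes (27.3%) called higher in F2, CALD1, TUBB2B and TMSB10, none of them balanced. Leaving out F2 replicate 1 gave 0 calls, and leaving out F2 replicate 2 gave 1. The chromatin members YBX1 and HMGB1, a DNA-bending protein (4.91, 5.98 and 4.78 in the F1, 6.50 and 7.61 in the F2), had every F2 above every F1. Signalling members were RAC1, GNB1, YWHAE and YWHAB, with means in both directions, and 1 and 6 of 33 tested signalling probes were called higher in F1 and F2, but 0 in all without F2 replicate 1 and 2 without F1 replicate 1 or F2 replicate 2. The lists for extracellular matrix, glycolysis and ion transport had no member among the 100, with 17, 6 and 14 tested probes. The member SPON1, a secreted matrix protein, was not in the matrix list. SPARC of that list had a measured F1 to F2 ratio of 0.71, within the limits, but was saturated on 2 arrays. The matrix list had 4 called higher in F2, 23.5% of its tested probes beside 17.8% of all tested NM_ probes. This count was 1 without F1 replicate 1 or F1 replicate 3. Of the 100, 43 fell in no list, 2 of them without a current symbol (NM_001008418 and NM_175831).

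**Figure D4:**
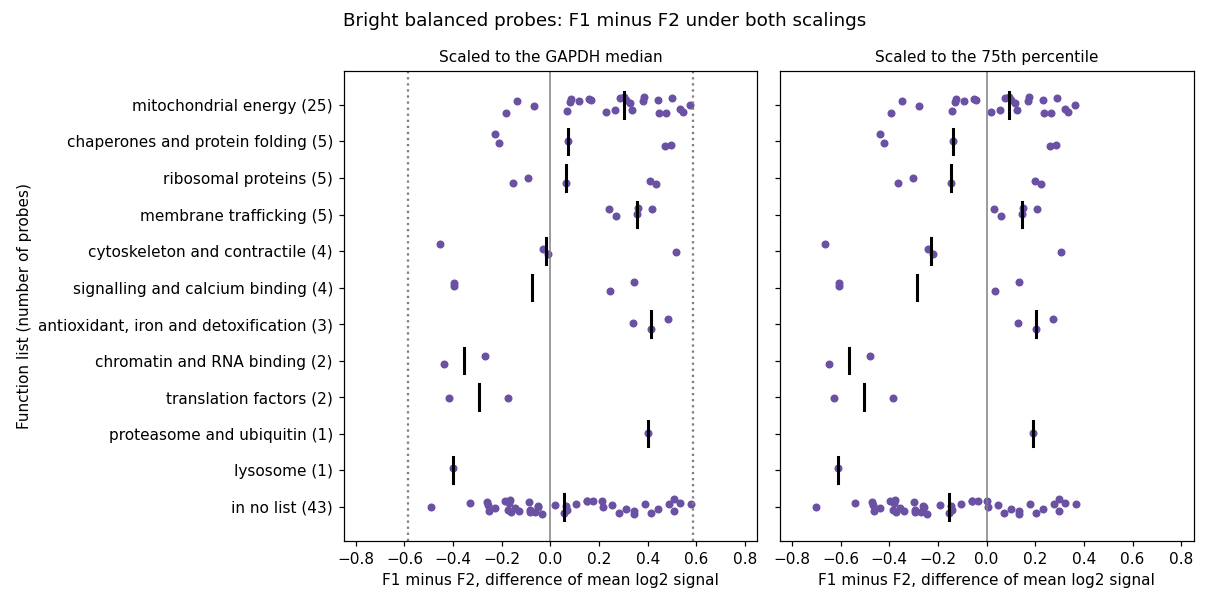
F1 minus F2 (difference of mean log2 signals) of each of the 100 balanced probes by function list, scaled to the GAPDH median (left, dotted lines at the 1.5-fold limits of the choice) and to the 75th percentile (right). Black bars are medians, which for mitochondrial energy moved from 0.30 to the left by the same amount as every other list.

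No balanced probe was called between F1 and F2 by limma (0 of 100, and 0 with an unadjusted p under 0.05), where 11.5% of all tested probes (6.39% higher in F1, 5.08% higher in F2) and 17.8% of tested NM_ probes were called. The lowest adjusted p was 0.211. The choice used this contrast, so nothing is read from the count. The groups did not overlap for 49 of the 100, 37 higher in F1 and 12 higher in F2, beside 47.6% of the 4810 probes measured on all arrays. By geometric mean 63 were higher in F1 and 37 in F2, with a median difference of 0.15. Scaled to the 75th percentile, 47 were higher in F1, the median was -0.06 and 30 did not overlap, so the direction of the small differences depends on the scaling.

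The same held for single follicles. F1 replicate 3 was the lowest of the 3 F1 for 68 of the 100 and the highest for 8, but under the 75th percentile it was the lowest for 11 and the highest for 60. F2 replicate 2 exceeded F2 replicate 1 for 66, and for 23 under the 75th percentile. The GAPDH median was 2.84, 2.85 and 3.69 times the 75th percentile in the F1 and 4.07 and 3.16 times in the F2, highest in the follicles where the GAPDH-scaled members were low, and its part in the order was not tested. Differences of this size between follicles are therefore relative to the scaling used.

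The probes on either side of each limit had nearly the same values. Just inside the upper limit, NDUFA2, COX8A and VKORC1, an enzyme of vitamin K recycling, had F1 to F2 ratios of 1.46, 1.49 and 1.49, and just outside lay NM_174818, COX7B and ATP5MC2 at 1.503, 1.51 and 1.51. On the other side, HMGB1, MYL6 and LOC282255 (an older name for which is IFITM3, an antiviral membrane protein) had F2 to F1 ratios of 1.35, 1.37 and 1.41, and ODC1, TXN and GPX4 lay outside at 1.54, 1.54 and 1.55. By brightness the last members were FADD, MEA1 and SND1 at 1.84, 1.71 and 1.71, followed outside by NDUFS1, SLC25A11 and MAN2B1 at 1.70, 1.70 and 1.67.

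The probe letters were also looked at, since the choice did not use them. The hexamer AATAAA, the common polyadenylation signal, stood in the probe of 28% of the 100, of 16.01% of the 737 measured and of 13.0% of all 1415 NM_ probes. The letters were searched on the printed strand alone, and a match describes the probe, not a working signal. The median probe GC content was 45% in the 100 and in the 737.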

How the data were processed

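RNA of 5 follicles (3 F1, 2 F2) was labelled with Cy3, and each was hybridised to its own 1-colour Agilent array. Per the file headers, the authors extracted each spot's background-corrected intensity (processed signal) with Feature Extraction 9.5.3.1, and that deposited intensity was used here. The deposited ratio table was the same intensity divided by the array's median GAPDH spot, and it served as an alternative. Each array had a slide of its own, so slide and follicle cannot be told apart, and all 5 were scanned in 1 session. The number of arrays limits the precision.

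Signals were divided by the GAPDH spot median, floored at 0.001 and log2-transformed. Limma 3.58.1 (lmFit, eBayes; R 4.3.3) tested F1 minus F2 in the 5528 probes that the scanner marked as well above background in all F1, all F2 or both, with Benjamini-Hochberg adjustment (called, adjusted p under 0.05). It was tested on simulated data. Python 3.11.15, numpy 2.4.6, pandas 2.3.3 and matplotlib 3.10.9 did the rest. Of 1415 NM_ accessions, 1364 matched a symbol in the RefSeq annotation table of ARS-UCD2.0, used for names only. Probes of 1 gene were kept apart. Saturated spots were kept in the tests.

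The 100 probes and all lists were chosen with earlier results of these data known. The text names the 20 brightest, the 5 with the smallest and the 5 with the largest SD, members in the reference gene list, the 3 on each side of each limit and members with a second probe sharing over 16 bases. Other named genes were chosen after their values were seen. No set test was run. Alternatives were scaling to the 75th percentile, quantile normalization, normexp with an offset of 50, the deposited ratios, other filters, floors, limits and numbers of probes, an intensity trend, a replicate block, and leaving out each follicle.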

Additional observations from a re-analysis of the deposited data

How the results depend on the processing

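No balanced probe was called under any of the 14 alternatives to the limma fit. Under the alternatives of scaling and choice the median within-group SD stayed between 0.172 and 0.217. The SD over all 5 follicles, which includes the F1 to F2 difference, had a median of 0.249. The choice used the F1 to F2 contrast, so nothing is read from the absence of calls. The number of the 100 chosen again fell to 58 with the narrower ratio limits and to 14 when every single-spot probe could enter, and was between 71 and 94 under the other alternatives. Calls in the function lists numbered 25 of 240 tested probes. They rose to 42 with an intensity trend and 41 with normexp, and fell to 8 with no filter on weak probes. Leaving out each follicle gave 2 to 26, with 11 without F1 replicate 1, 16 without F1 replicate 3, 2 without F2 replicate 1 and 9 without F2 replicate 2. Calls over all probes were 634, fell to 214 with no filter and ranged from 160 to 550 without each follicle (344 without F1 replicate 1, 160 without F2 replicate 1, 200 without F2 replicate 2). The cause of these shifts was not tested. The labels give F1 and F2 the same replicate numbers, but deviations of the same-numbered follicles correlated by 0.039 and 0.13 and nothing ties the numbers to a cow. With a replicate block 578 probes were called in all, 18 in the lists and 0 of the 100.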
